A study of Mus musculus with 6 samples.

Results

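The genes of vascular endothelial growth factor (VEGF) and angiopoietin signalling were examined in the sciatic nerve of sham-operated mice. Members were chosen by gene symbol, as genes of the pathway and by no threshold on their values but with earlier results of these data known, and comprise 4 VEGF ligands (Vegfa, Vegfb, Vegfc and Vegfd), 3 VEGF receptors (Flt1, Kdr and Flt4), 2 angiopoietins (Angpt1 and Angpt2) and their receptor Tek. These are 10 of the 54309 genes in the files, and they hold 37 of the 140789 transcripts. The samples were 3 pools of left sciatic nerve from female and 3 from male C57BL/6J mice, each pool of 2 mice aged 6 to 8 weeks, collected 24 h after surgery in which the nerve was exposed but not cut. Because every group was sham-operated, the values describe exposed nerve; unoperated and axotomized nerves were not analysed here. Pooling hides the spread between single mice, so n below counts pools. The question addressed was whether these genes and their transcript forms differed between female and male nerves that had not been cut.

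VEGF-A binds the tyrosine kinase receptors VEGFR1 (Flt1) and VEGFR2 (Kdr) on endothelial cells, of which VEGFR2 carries most of the growth and permeability signal. VEGF-C and VEGF-D act on VEGFR3 (Flt4), the receptor known best from lymphatic endothelium, and angiopoietin 1 activates the receptor Tie2 (Tek) while angiopoietin 2 can oppose it. In peripheral nerve, vessels run in the epineurium and endoneurium, and the tight endoneurial vessels form part of the blood-nerve barrier.

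Libraries held 55949876 to 66285694 estimated read pairs in females and 59165914 to 78473057 in males. Female pool 2 stood apart by its fast skeletal muscle transcripts, whose summed level was 3782 TPM, an abundance corrected for transcript length, against 18.8 to 240 TPM in the other 5 pools. All 14 general endothelial markers, among them Pecam1, Cdh5 and Cldn5, passed the filter on low counts and none was at 0. Their summed level was 904 to 1156 TPM in the female pools and 868 to 1073 TPM in the male pools. None of the 14 passed the test between the sexes in edgeR, but only 0.0613% of all genes tested did. In whole nerve, fewer cells of a type and less RNA per cell cannot be told apart.

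All 10 members were expressed, at levels from 2.78 TPM for Vegfc to 40.6 TPM for Vegfa as means of 6 pools. Vegfa was at the 75.5th percentile of the 16310 genes that passed the filter on low counts, whose median level was 15.1 TPM, and Vegfc was at the 20.8th. In descending order of TPM, which is corrected for transcript length, the members ranked Vegfa, Vegfb, Vegfd, Angpt2, Kdr, Flt1, Tek, Flt4, Angpt1 and Vegfc. Of the 9 neighbouring pairs in that order, 7 overlapped across pools. Only Vegfa over Vegfb (lowest 32.3 TPM against highest 28.0 TPM) and Tek over Flt4 (8.66 against 4.51 TPM) were separated, although Kdr was above Flt1 in 6 of 6 pools. In TPM of all transcripts, the order thus had a top gene, 6 genes linked by overlap of neighbours and a low group of 3. Genes further apart among the 6 could be separate. The lowest Vegfb pool (21.9 TPM) was above the highest Angpt2 pool (19.2 TPM), and the lowest Vegfd pool (15.3 TPM) above the highest Flt1 pool (13.3 TPM). The low group comprised the VEGF-C receptor, VEGF-C itself and angiopoietin 1. The top place of Vegfa depended on the unit and on transcripts with a retained intron and no coding sequence. Its coding transcripts averaged 13.9, 7.11, 0.968, 0.132 and 0 TPM, together not above the 12.1 and 11.1 TPM of those of Vegfb. In counts not corrected for transcript length, Kdr ranked 1st, Vegfa 3rd and Vegfb 8th.

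**Figure D1:**
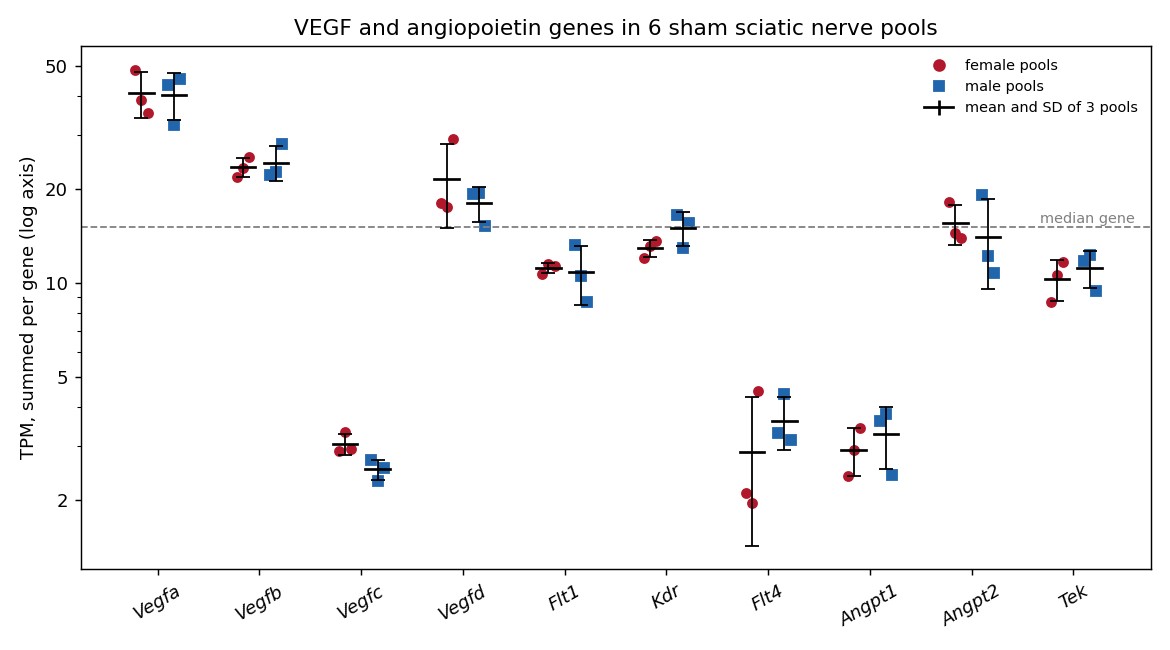
Level of each gene in TPM (log axis) in 3 female pools (circles) and 3 male pools (squares), with the mean and SD of each sex; the dashed line is the median gene at 15.1 TPM. Female and male points overlap for every gene except Vegfc, whose 3 female pools (2.87 to 3.31 TPM) lie above the 3 male pools (2.32 to 2.69 TPM).

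None of the 10 members passed the test between the sexes (edgeR's quasi-likelihood test, Benjamini-Hochberg adjusted p below 0.1), where 0.0613% of all genes tested did (0.0245% higher in females and 0.0368% higher in males). None had an unadjusted p below 0.05 either, against 6.11% of all genes, and none was called by DESeq2 (0.978% of all genes) or limma voom (0.11%). In DESeq2, too, no member had an unadjusted p below 0.05, as 6.33% of all genes did, whereas in limma voom 3 members (Vegfc, Flt4 and Angpt1) did, against 15.4% of all genes. Estimates were higher in females for 6 members and in males for 4, as they were for 50.6% and 49.4% of all genes, with a median log2 fold change, female over male, of 0.035 against 0.0016 over all genes. In 1 of 10 members, Vegfc, the normalised counts of the 3 female pools did not overlap those of the 3 male pools, a pattern seen in 11.2% of all genes in either direction. Leaving out female pool 2, which held the muscle transcripts, gave no call either. With 3 pools a sex the intervals remained wide, so these tests do not show that the levels were equal.

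**Figure D2:**
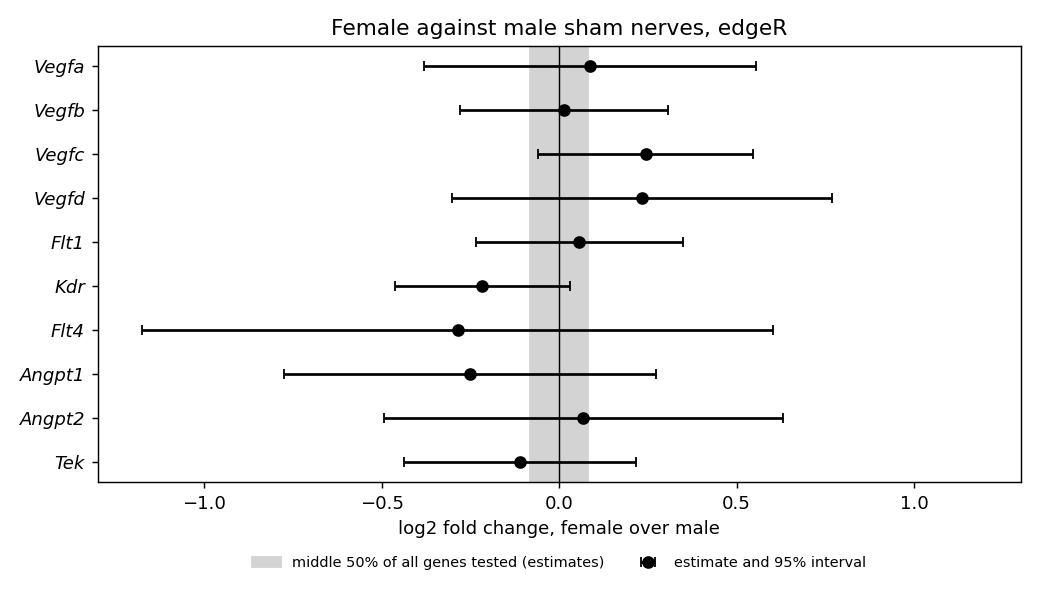
Log2 fold change, female over male, of each gene with its 95% interval from edgeR; the grey band holds the middle 50% of estimates of all 16310 genes tested. All 10 intervals include 0, the narrowest around Kdr (-0.46 to 0.03) and the widest around Flt4 (-1.18 to 0.60).

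Among the ligands, Vegfa (chromosome 17, 46327919 to 46343309, minus strand; GRCm39 here and below) encodes the principal growth factor for blood vessels. It measured 48.5, 38.7 and 35.3 TPM in female pools 1, 2 and 3 and 43.3, 32.3 and 45.3 TPM in male pools 1, 2 and 3. Both sexes spanned nearly the same range, the female mean being 40.8 ± 6.89 and the male mean 40.3 ± 6.97 (SD, n = 3 each). The log2 fold change was 0.09 (SE 0.20, 95% interval -0.38 to 0.56, edgeR adjusted p = 0.956), and it turned negative without female pool 1 (-0.09) or without male pool 2 (-0.07).

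Vegfb (chromosome 19, 6958447 to 6965127, minus strand) encodes a ligand of VEGFR1. Its level was 21.9, 23.5 and 25.4 TPM in the female pools and 22.3, 22.8 and 28.0 TPM in the male pools. It was the steadiest member, with a coefficient of variation over the 6 pools of 9.59%, close to the 9.55% of the median gene. Between the sexes the log2 fold change was 0.01 (SE 0.13, 95% interval -0.28 to 0.31, edgeR adjusted p = 0.993). It turned negative without female pool 3 (-0.02), male pool 1 (-0.07) or male pool 2 (-0.04), and was -0.06 with offsets for transcript length.

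Vegfc (chromosome 8, 54530257 to 54640131, plus strand) encodes a lymphatic growth factor and was the scarcest member, with 1175 estimated read pairs over all pools. Female pools held 2.87, 3.31 and 2.94 TPM and male pools held 2.69, 2.32 and 2.54 TPM. Although every female pool was above every male pool, the log2 fold change of 0.24 (SE 0.13, 95% interval -0.06 to 0.55) had an unadjusted p of 0.0999 and an adjusted p of 0.838 in edgeR. In limma voom with sample weights the unadjusted p was 0.0221 and the adjusted p was 0.267. Its direction was kept in each fit that left out a pool, at 0.19 to 0.30.

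Vegfd (chromosome X, 163156240 to 163185646, plus strand) encodes the other ligand of VEGFR3. It measured 18.1, 17.5 and 29.03 TPM in females against 19.3, 19.5 and 15.3 TPM in the male pools. Female pool 3 was the highest of all pools, while female pools 1 and 2 lay between the male values. The log2 fold change of 0.23 (SE 0.22, 95% interval -0.30 to 0.77, edgeR adjusted p = 0.896) rested on that pool and was -0.07 without it. The 10 white adipocyte markers also summed highest in female pool 3, at 1983 TPM against 1010 to 1355 TPM in the other 5 pools, and none of the 10 was at 0 in every pool. Estimates were higher in females for all 10 of these markers, as they were for 50.6% of all genes. Of the 10, none was called in edgeR and 1 in DESeq2, against 0.0613% and 0.978% of all genes. Erythroid markers summed to 30730 TPM in female pool 3 against 4958 to 14090 TPM elsewhere. The part of either in the Vegfd level was not tested. Vegfd exceeded Vegfc in every pool, and the ratio of Vegfc to Vegfd in TPM had a geometric mean of 0.142 and a range of 0.101 to 0.189.

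Turning to the receptors, Kdr (chromosome 5, 76093487 to 76139884, minus strand) encodes VEGFR2 and was the member with the most estimated read pairs, 21486. Its level was 12.1, 13.2 and 13.7 TPM in the female pools and 16.6, 12.96 and 15.6 TPM in the male pools, so that male pools 1 and 3 were above all females and male pool 2 was among them. The log2 fold change was -0.22 (SE 0.11, 95% interval -0.46 to 0.03), with an unadjusted p of 0.0781 and an adjusted p of 0.831 in edgeR. In linear terms the interval runs from 0.726 to 1.02 times the male level. No fit that left out a pool reversed it (-0.32 to -0.16). Relative to the summed endothelial markers, a scaling chosen after seeing the data, Kdr was higher in every male pool than in any female pool, with a log2 difference of -0.27 (exact permutation p = 0.1, two-sided, the smallest that 3 against 3 pools allow; 0.6 after adjustment over the 10 members). Female pool 2 (13.2 against a sum of 981.7 TPM) and male pool 2 (12.96 against 966.2 TPM) were nearly level on this scale. Ly6c1 alone gave 441.7, 446.9 and 594.2 TPM of the sum in the female pools. In the male pools it gave 458.1, 422.9 and 413.4 TPM. The scaling was not repeated without Ly6c1, so the separation may depend on that gene.

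Flt1 (chromosome 5, 147498414 to 147662826, minus strand) encodes VEGFR1, a high-affinity receptor of weak kinase activity that also exists as a secreted trap for VEGF-A. Females measured 10.7, 11.5 and 11.3 TPM and males 13.3, 10.5 and 8.69 TPM. The female pools were tightly grouped (11.2 ± 0.409, SD, n = 3) inside the wider male range (10.8 ± 2.30, SD, n = 3). Its log2 fold change was 0.06 (SE 0.13, 95% interval -0.23 to 0.35, edgeR adjusted p = 0.956), or -0.05 without male pool 3.

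The ratio of Flt1 to Kdr in TPM was 0.890, 0.875 and 0.829 in females and 0.802, 0.811 and 0.558 in males. All 3 female ratios were above all 3 male ratios, by 0.28 on the log2 scale (exact permutation p = 0.1, two-sided, the smallest possible; 0.6 after Benjamini-Hochberg adjustment over 6 ratios). The difference was 0.10 without male pool 3, which had the lowest ratio. In TMM-normalised counts the difference was 0.28 but the pools of the sexes overlapped (exact permutation p = 0.3, two-sided).

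Flt4 (chromosome 11, 49500090 to 49543582, plus strand) encodes VEGFR3 and varied more between pools than any other member. It was at 2.11, 1.96 and 4.51 TPM in the female pools and at 3.30, 4.40 and 3.13 TPM in the male pools. Female pools 1 and 2 were the lowest of the 6 and female pool 3 the highest, giving a coefficient of variation of 33.5%, at the 95.5th percentile of all genes. The log2 fold change of -0.29 (SE 0.36, 95% interval -1.18 to 0.60, edgeR adjusted p = 0.926) ranged from -0.07 without female pool 2 to -0.77 without female pool 3, and was -0.64 in limma voom.

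Of 6 lymphatic endothelial markers, 4 were lowest in the same pools, as was Flt4, and 2 were not. Prox1, the transcription factor that defines lymphatic endothelium, measured 0.194, 0.286 and 0.735 TPM in the female pools and 0.474, 0.791 and 0.508 TPM in the male pools. Mmrn1, a secreted protein of lymphatic endothelium, measured 3.60, 3.90 and 11.1 TPM in the female pools and 6.70, 11.2 and 5.43 TPM in the male pools. For Ccl21a, a chemokine of lymphatic vessels, the values were 24.8, 29.01 and 100.0 TPM in the female pools and 48.0, 91.4 and 93.7 TPM in the male pools. Reln, a secreted glycoprotein, measured 85.2, 84.6 and 110.4 TPM in the female pools against 108.2, 111.4 and 97.3 TPM in males. In these 4 genes, female pools 1 and 2 were the lowest of the 6. Lyve1, a hyaluronan receptor of lymphatic endothelium and some macrophages, was lowest in male pool 3 (25.7 TPM). Pdpn, a surface glycoprotein, ran the other way, at 244.2, 196.0 and 157.1 TPM in the female pools against 203.1, 164.4 and 162.1 TPM in males, and was highest in female pool 1. The whole list of 6 lymphatic markers had no member at 0, and its summed level was 346 to 433 TPM in the female pools and 385 to 432 TPM in the male pools. Of that sum, 61.8% to 84.1% came from Pdpn and Reln, which are also expressed by other cells of the nerve. None of the 6 passed the test between the sexes in edgeR, where only 0.0613% of all genes did, and their part in the level of Flt4 was not tested.

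**Figure D3:**
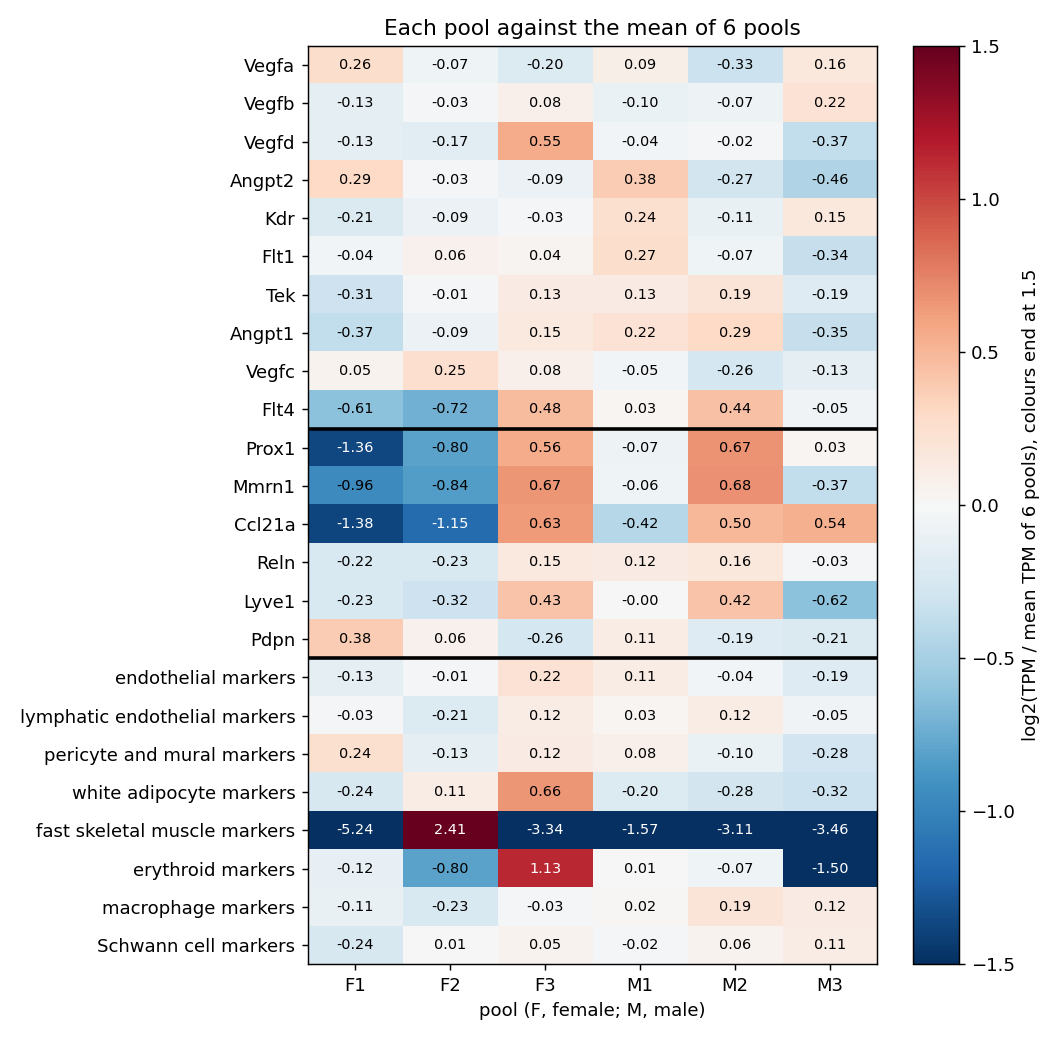
Log2 ratio of each pool's TPM to the mean of the 6 pools, for the 10 genes (top block), 6 lymphatic markers (middle) and the summed marker lists (bottom); colours end at 1.5. Flt4, Prox1, Mmrn1, Ccl21a and Reln are lowest in female pools 1 and 2, Lyve1 is lowest in male pool 3 and Pdpn is highest in female pool 1, and Vegfd (0.55) and white adipocyte markers (0.66) are highest in female pool 3.

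For the angiopoietin system, Angpt2 (chromosome 8, 18739202 to 18791603, minus strand), released by activated endothelium, was at 18.2, 14.5 and 13.95 TPM in the female pools and 19.2, 12.3 and 10.8 TPM in the male pools. Pool 1 of each sex was high, and the sexes overlapped. Its log2 fold change was 0.07 (SE 0.23, 95% interval -0.49 to 0.63, edgeR adjusted p = 0.972). The sign reversed without female pool 1 (-0.08), male pool 2 (-0.02) or male pool 3 (-0.08), and in limma voom (-0.08).

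Angpt1 (chromosome 15, 42288058 to 42540417, minus strand), which comes mainly from mural and other supporting cells and stabilises vessels, was at 2.40, 2.91 and 3.42 TPM in females. Male pools held 3.60, 3.79 and 2.42 TPM, so that male pools 1 and 2 were above all females and male pool 3 was near the lowest female. For Angpt1 the log2 fold change was -0.25 (SE 0.23, 95% interval -0.78 to 0.27, edgeR adjusted p = 0.885). It was -0.10 without male pool 2, -0.11 without female pool 1, -0.42 without male pool 3 and -0.45 without female pool 3, and -0.42 in limma voom.

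Angpt2 exceeded Angpt1 in all 6 pools. The ratio in TPM was 7.6, 4.99 and 4.08 in females and 5.35, 3.24 and 4.46 in males, with a geometric mean of 4.78, and the sexes overlapped (log2 difference 0.33, exact permutation p = 0.5, two-sided).

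Tek (chromosome 4, 94627291 to 94763224, plus strand) encodes the angiopoietin receptor Tie2. It measured 8.66, 10.7 and 11.7 TPM in the female pools and 11.7, 12.3 and 9.40 TPM in the male pools, which overlapped. Tek had a log2 fold change of -0.11 (SE 0.14, 95% interval -0.44 to 0.22, edgeR adjusted p = 0.927), or 0.02 without female pool 1. Relative to Tie1, the related orphan receptor with which Tie2 pairs, Tek kept a narrow range of ratios of 0.835 to 0.975 in the 6 pools. This was the steadiest of the 6 ratios computed, with an SD on the log2 scale of 0.083.

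The ratio of Vegfa to its receptor Kdr ranged from 2.49 to 4.02 and that of Vegfa to Vegfb from 1.39 to 2.22. Female pool 1 was the highest in both. Neither separated the sexes (exact permutation p = 0.4 and 0.9, two-sided, before adjustment). Both ratios used the summed TPM of all Vegfa transcripts, including those with a retained intron and no coding sequence. Neither ratio was computed for coding transcripts alone.

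Transcript forms were then compared, because Vegfa and Flt1 each encode proteins that differ in where they act. Exons 6 and 7 of Vegfa code for stretches that bind heparin and, for exon 7, neuropilin. VEGF120 lacks both and diffuses freely, VEGF164 has exon 7, and VEGF188 has both and stays bound to matrix. Exon 6 is 72 bases long (chr17:46333203-46333274, minus strand, GRCm39), exon 7 is 132 bases (chr17:46331917-46332048), and the coding part of exon 8 is 19 bases (chr17:46329787-46329805). The exons that set these forms apart are shown 5′ to 3′, followed by the junctions at which the last 15 bases of exon 5 (lower case) meet the first 15 bases of the next exon (capitals).
Vegfa exon 6: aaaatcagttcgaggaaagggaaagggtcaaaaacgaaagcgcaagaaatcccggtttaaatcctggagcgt
Vegfa exon 7: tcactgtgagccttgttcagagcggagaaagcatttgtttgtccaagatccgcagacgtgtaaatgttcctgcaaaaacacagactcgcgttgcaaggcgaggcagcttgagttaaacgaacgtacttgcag
Vegfa exon 8 coding part: atgtgacaagccaaggcgg
VEGF120 junction: aacaaagccagaaaaATGTGACAAGCCAAG
VEGF164 junction: aacaaagccagaaaaTCACTGTGAGCCTTG
VEGF188 junction: aacaaagccagaaaaAAAATCAGTTCGAGG

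Counted from the shared start codon, the 3 forms have 146, 190 and 214 codons. Every transcript of the gene, coding or not, was assigned to a form by which of exons 6 and 7 it holds between exons 5 and 8, and those not spanning exons 5 to 8 were kept apart. The VEGF164 type was the leading form in every pool, with 46.0%, 46.3% and 44.1% of Vegfa TPM in the female pools and 46.7%, 43.1% and 36.9% in males. The VEGF120 type held 31.5%, 27.5% and 28.6% in females and 25.2%, 26.3% and 36.7% in males. In male pool 3 these types were nearly equal, and that pool had the lowest VEGF164 and the highest VEGF120 share of the 6.

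The VEGF188 type was a minor form, at 3.00%, 4.23% and 8.71% in females and 5.39%, 6.65% and 10.5% in males. The VEGF144 type, which has exon 6 but not exon 7, was listed at 0 in 4 pools and reached 1.28% in male pool 3. The remaining 14.7% to 23.9% came from transcripts with a retained intron that do not span exons 5 to 8. Other retained-intron transcripts, also without coding sequence, were counted within the forms. Of Vegfa TPM, Vegfa-205 (VEGF164 type) held 5.91% to 12.8%, Vegfa-210 (VEGF120 type) 10.8% to 12.8% and Vegfa-206 (VEGF188 type) 0% to 8.5%. In male pool 3, the 10.5% of the VEGF188 type included 8.5% from Vegfa-206.

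Female minus male differences were 3.20 percentage points for the VEGF164 type (exact permutation p = 0.4, two-sided) and -0.23 points for the VEGF120 type (exact permutation p = 1). For the VEGF188 type the difference was -2.19 points (exact permutation p = 0.4). After adjustment over 6 shares these were 0.8 to 1. With 1 pool left out, the VEGF164 difference ranged from 0.50 points (without male pool 3) to 5.44 points (without male pool 1), and the VEGF188 difference from -3.89 points (without female pool 3) to -0.71 points (without male pool 3). Both reversed among protein-coding transcripts alone, to -0.26 and 1.28 points. The level of the shares depended strongly on the unit, whereas the order of forms did not. Among protein-coding transcripts alone the VEGF164 type held 53.2% to 70.3% of TPM, the VEGF120 type 26.8% to 41.2% and the VEGF188 type 2.10% to 7.79%, and male pool 3 again had the lowest VEGF164 share. As shares of estimated read pairs, the VEGF164 type held 55.7% to 69.0%. Shares are estimates by Salmon from reads that can fit several transcripts, and several transcripts have another length in the files than in the annotation from which the forms were taken, so they carry an error beyond that between pools.

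For Flt1, the full-length receptor transcript (1333 codons) splices exon 13 to exon 14, while the soluble form (688 codons) reads on past exon 13 into a tail with its own stop codon and thus lacks the membrane span and kinase. The tail carries 92 coding bases, shown in capitals after the last 15 bases of exon 13 (chr5:147575943-147576049, minus strand, GRCm39). The full-length junction is given beside it, with the first 15 bases of the next exon in capitals.
Flt1 soluble tail: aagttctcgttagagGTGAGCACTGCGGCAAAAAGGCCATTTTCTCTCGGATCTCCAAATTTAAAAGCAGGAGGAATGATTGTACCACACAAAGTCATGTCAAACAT
Flt1 full-length junction: aagttctcgttagagATTCGGAAGCGCCAC

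The soluble transcript made up 38.2%, 40.9% and 42.5% of Flt1 TPM in the female pools and 38.8%, 38.1% and 40.6% in males. The full-length transcript made up 60.1%, 57.4% and 51.0% in females and 56.5%, 56.2% and 55.6% in males. Full-length Flt1 was thus the larger form in all 6 pools, and the soluble share kept to a range of 38.1% to 42.5%. Means of the soluble share were 40.5% ± 2.14 (SD, n = 3) and 39.2% ± 1.296 (SD, n = 3) in females and males, a difference of 1.37 points (exact permutation p = 0.4, two-sided). In estimated read pairs, which are not corrected for length, the soluble share was 31.8% to 38.6%.

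**Figure D4:**
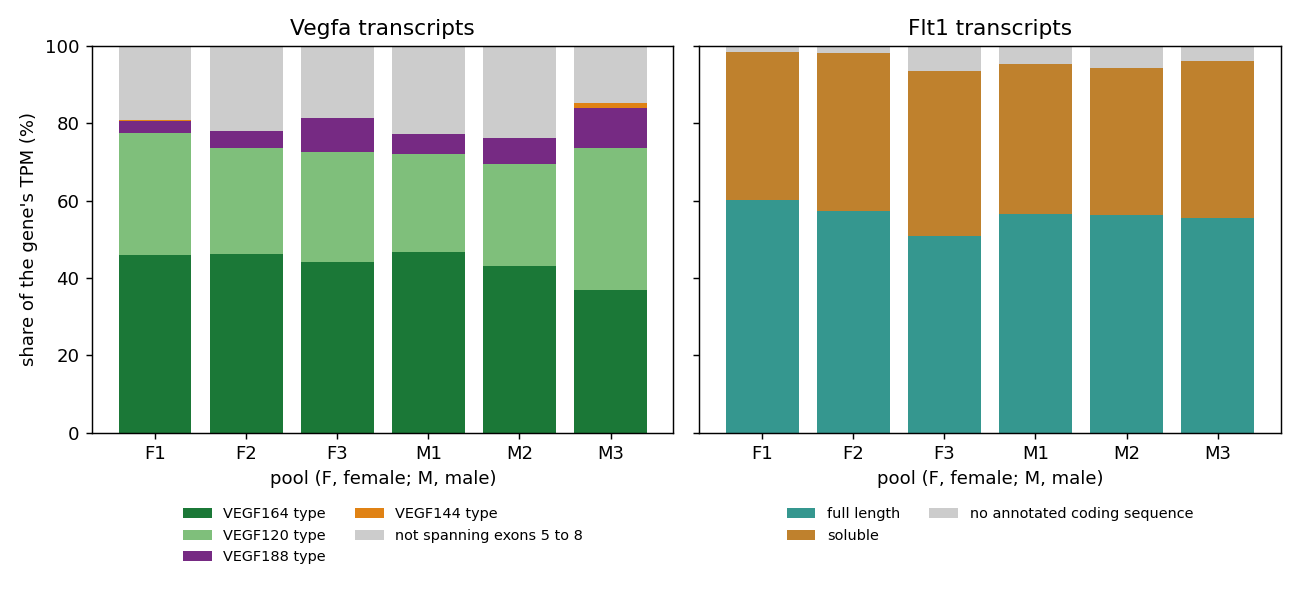
Share of each gene's TPM (stacked to 100%) held by the forms of Vegfa (left) and Flt1 (right) in each pool. The VEGF164 type leads in every pool and nearly equals the VEGF120 type in male pool 3 (36.9% and 36.7%), and soluble Flt1 holds 38.1% to 42.5%.

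The other members had simpler transcript patterns. Vegfb was split between Vegfb-201 (45.1% to 54.3% of its TPM) and Vegfb-202 (41.0% to 52.3%), which encode the more soluble and the more heparin-bound forms of VEGF-B respectively. Either of them could lead, since Vegfb-202 was ahead in female pools 2 and 3 and Vegfb-201 in the other 4 pools. Tek was spread over Tek-203 (1123 codons, mean share 60.8%), Tek-201 (1122 codons, 25.7%) and Tek-202 (1072 codons, 13.3%), in that order. A single coding transcript held 87.1% to 100.0% of Angpt2, 93.8% to 100.0% of Angpt1 and of Vegfc, 95.7% to 99.5% of Vegfd, 97.6% to 99.8% of Flt4 and 99.5% to 100.0% of Kdr. Of the 37 member transcripts, 20 passed the filter on low counts, and 2 (Vegfa-204 and Vegfc-203) were at 0 in every pool. None of the 20 passed the test between the sexes or had an unadjusted p below 0.05 (edgeR, adjusted p 0.997 to 0.999), where 0.0289% and 4.19% of 41480 transcripts did.

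The wider pathway was read from 6 lists holding 67 genes, of which 66 passed the filter on low counts. None of the 66 passed the test in edgeR or limma voom, and 1 did in DESeq2. Of all genes, 0.0613%, 0.11% and 0.978% did so in edgeR, limma voom and DESeq2, respectively. An unadjusted p below 0.05 in edgeR was found for 3 (Hif3a, Ddit4 and Esm1), against the 6.11% of all genes given above. Estimates were higher in females for 39 genes and in males for 27, with a median log2 fold change of 0.023. Female and male pools did not overlap for 3 genes higher in females and 4 higher in males, against 5.2% and 6.04% of all genes.

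Of 7 co-receptors, partners and related ligands, 1 estimate was higher in females and 6 in males (median log2 fold change -0.035). The neuropilins, co-receptors of VEGF-A and VEGF-C, were the most abundant, with Nrp1 at 56.4 ± 2.83 TPM in the female pools and 57.1 ± 7.23 TPM in the male pools (SD, n = 3 each) and Nrp2 at 31.5 ± 1.63 and 32.3 ± 0.526. Svep1, a matrix protein that binds angiopoietins, had a log2 fold change of 0.14 (SE 0.14) and Ptprb, the phosphatase that restrains Tie2, one of -0.08 (SE 0.13).

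Among 20 genes that relay the VEGF receptor signal, 19 passed the filter, with 13 estimates higher in females and 6 in males (median 0.025). Mapk3 and Akt1, kinases used by many receptors, were the most abundant, at means over 6 pools of 333.7 and 135.3 TPM. The adaptors with the smallest p-values were Sh2b3 (log2 fold change -0.10, SE 0.056, edgeR adjusted p = 0.838) and Dok2 (0.11, SE 0.078, adjusted p = 0.864).

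The 10 genes of HIF oxygen sensing, which governs transcription of Vegfa under low oxygen, split evenly, with 5 estimates higher in each sex (median 0.0049). Hif1a, the oxygen-regulated subunit, was at 135.3 ± 23.4 TPM in the female pools and 132.7 ± 13.8 TPM in the male pools (SD, n = 3 each), and Egln1, the main oxygen-sensing hydroxylase, at 66.6 ± 2.18 and 65.6 ± 2.51. Hif3a, a HIF family member with inhibitory splice forms, measured 3.92 ± 1.77 TPM in the female pools and 1.98 ± 0.454 TPM in the male pools, with no overlap of pools in normalised counts. Its log2 fold change was 0.94 (SE 0.31), with an adjusted p of 0.75 in edgeR and 0.0736 in DESeq2, and it was the gene called by DESeq2. Egln2, a related hydroxylase, had a log2 fold change of 0.13 (SE 0.06, edgeR adjusted p = 0.814).

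In the list of 12 hypoxia-responsive genes, 7 estimates were higher in females and 5 in males (median 0.057). Ndrg1, which Schwann cells express highly, and Ldha, a glycolytic enzyme, led in abundance at means of 1325 and 582.9 TPM. Ddit4, an inhibitor of mTOR signalling, was at 73.9 ± 9.32 TPM in the female pools and 53.9 ± 9.55 TPM in the male pools, with a log2 fold change of 0.51 (SE 0.17, edgeR adjusted p = 0.75, DESeq2 adjusted p = 0.169). Adm, a vasodilator peptide, had a log2 fold change of 0.45 (SE 0.23, edgeR adjusted p = 0.838). It was highest in female pool 3, at 47.2 TPM. Female pools 1 and 2 (28.9 and 26.3 TPM) lay within the male range of 23.6 to 30.2 TPM.

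Of 12 genes of tip cells or of the endothelial response to VEGF, 8 estimates were higher in females and 4 in males (median 0.087). Esm1, a proteoglycan of tip cells, was at 3.58 ± 1.61 TPM in the female pools and 2.01 ± 0.643 TPM in the male pools (log2 fold change 0.80, SE 0.34, edgeR adjusted p = 0.813), and its pools overlapped. Nr4a1 and Adamts1, both inducible by VEGF, were the most abundant of the list, with log2 fold changes of 0.22 (SE 0.14) and 0.19 (SE 0.15). Unc5b, a guidance receptor of endothelium, had one of -0.26 (SE 0.16). The 6 genes of VEGF-C processing had 5 estimates higher in females and 1 in males (median 0.034), and their most abundant members, the convertases Furin, Pcsk5 and Pcsk7, had log2 fold changes of 0.01 (SE 0.11), -0.12 (SE 0.11) and 0.06 (SE 0.06).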

How the data were processed

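RNA from 6 pools of sham-operated sciatic nerve was sequenced by the authors as stranded poly-A libraries in paired reads. Reads were trimmed with Trimmomatic 0.39 and quantified with Salmon 1.5.2, per the submitters' processing notes; the GENCODE release is M27 in the names of the tables and M29 in the study's methods. The deposited values per transcript are an estimated count made by Salmon, with no further normalization, a TPM, which the authors' software scaled to one total per pool, and an effective length.

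Here both were summed per gene. Estimated counts were rounded and tested in edgeR 4.0.16 by a robust quasi-likelihood fit of sex alone after TMM scaling, keeping genes that reached 0.5 CPM in 3 or more pools. The Benjamini-Hochberg threshold was 0.1, that of the study. Shares and ratios were compared by exact permutation tests, which with 3 against 3 pools cannot go below 0.1. Transcript forms, coordinates and sequences came from GENCODE M39 on GRCm39, which held all 37 member transcripts and 53700 of the 54309 gene identifiers. Pools are separate samples of different mice. DESeq2 1.42.0, limma 3.58.1 (voom), other filters and scalings, a replicate block and the omission of each pool in turn were alternatives. Per pathway list, the 2 genes of highest mean TPM and the 2 of smallest p were named. Other genes were named by role or as markers after their values were seen. The members and lists were chosen with earlier results of these data known. The fits were tested on simulated data.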

Additional observations from a re-analysis of the deposited data

How the results depend on the processing

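No member was called in any alternative. No member transcript was called in those run on transcripts, which were a filter of 1 CPM, the replicate block, limma voom and each pool left out. The lowest adjusted p of a member in 14 fits was 0.267 (Vegfc, limma voom). Over all genes, 10 were called, against 159 with DESeq2, 49 with no filter, 18 with limma voom and 3 to 8 with 1 pool left out (3 without male pool 1, 4 without female pool 1 or male pool 2). Of the pathway genes, 1 was called with DESeq2. Deviations of same-numbered pools from the means of their sex correlated at -0.18, -0.128 and -0.097, and no pool correlated best with its own number. The highest values were 0.204 (female pool 2 with male pool 1), 0.193 (female pool 3 with male pool 2) and 0.161 (female pool 1 with male pool 3). Deviations from a mean of 3 pools are tied to one another, so these correlations cannot exclude a pairing or a shared batch. With the replicate number as a block, 5 genes and no member were called.

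Directions were kept in all alternatives for Vegfc, Kdr, Flt4 and Angpt1. Log2 fold changes of the other members with 1 pool left out were -0.091 to 0.24 (Vegfa), -0.073 to 0.18 (Vegfb), -0.068 to 0.37 (Vegfd), -0.049 to 0.22 (Flt1), -0.084 to 0.36 (Angpt2) and -0.23 to 0.020 (Tek). Limma voom gave -0.012 for Vegfd and -0.083 for Angpt2, offsets for length gave -0.055 for Vegfb, and scaling to endothelial markers, chosen after seeing the data, gave -0.042 for Vegfa and -0.10 for Vegfb. Differences in Vegfa shares with 1 pool left out were -2.33 to 3.42 points (VEGF120 type), -0.50 to 0.15 (VEGF144 type) and -3.36 to 1.26 (not spanning exons 5 to 8). Coding transcripts alone gave -0.26 points for the VEGF164 type and 1.28 for the VEGF188 type, and estimated counts gave 0.085 for the latter. Log2 differences in ratios with 1 pool left out were -0.12 to 0.22 (Vegfa over Vegfb), -0.14 to 0.31 (Vegfc over Vegfd) and -0.054 to 0.059 (Tek over Tie1). Vegfc over Vegfd was -0.016 with 1 TPM added and Tek over Tie1 -0.049 in TMM-normalised counts. The cause of these reversals was not tested. The 95% intervals given for each member show the precision that 3 pools a sex allow.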
